A study of Ovis aries with 6 samples.

Results

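FGF7, FGF10 and FGF2 are fibroblast growth factors, and these 3 of the 476 genes named on the array were followed across 6 skin samples of Aohan fine wool sheep. Every probe was kept that the array lists under the sheep RefSeq mRNA of 1 of the 3 genes, which gave 8 probes: 2 for FGF7, 4 for FGF10 and 2 for FGF2. The samples were full-thickness skin of 3 half-sib animals aged 12 months, 1 ram and 2 ewes, taken from the wool-bearing body side (3 samples) and from the groin, which bears no wool (3 samples). The labels give no treatment beyond local anaesthesia at sampling, and each sample was hybridised to its own 1-colour (Cy3) Agilent array. Replicate 1 is the ram at both sites, and replicates 2 and 3 are ewes. By its title, the series asks which genes go with the growth phase of the wool fibre.

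Fibroblast growth factors are secreted proteins that bind receptor tyrosine kinases on nearby cells together with heparan sulphate, and the receptors signal through the RAS and ERK kinases and through PI3K and AKT. FGF7, also called keratinocyte growth factor, and FGF10 belong to the same subfamily, are made by mesenchymal cells and act on epithelial cells through the epithelial splice form of FGFR2. In hair follicles both are known as products of the dermal papilla and the dermis around it. FGF2, basic fibroblast growth factor, acts on fibroblasts, endothelial cells and many others, and lacks a classical secretion signal.

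The body side arrays were dimmer as a whole. The 75th percentile of the processed signal lay between 3677 and 4401 on the groin arrays and between 1103 and 2048 on the body side arrays. Between 10730 and 14053 probes per array were well above background. Levels below are therefore log2 of the processed signal minus that percentile, and a difference is body side minus groin on this log2 scale. The 2 sites were scanned apart, all groin arrays together and all body side arrays together, and scan and site cannot be told apart. With an adjusted p under 0.05 from limma as the threshold, 69.9% of the 13278 tested probes were called, 32.8% as lower and 37% as higher on the body side. Of the 8 probes of the 3 genes, 4 were well above background on all 6 arrays, and of these 1, of FGF7, was called lower and 3 did not pass, where 28% of the probes with such readings were called lower. The other 4 were also called lower, but they passed the filter through the groin arrays alone, so their calls are no support for a difference. With normexp background correction the 8 probes gave 2 lower and 2 higher calls. The sites did not overlap for 2 of the 4 probes read on all arrays, beside 75.2% of all tested probes. That share also counts probes that passed the filter through 1 site alone.

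FGF7 read lower in wool-bearing skin on both of its probes, of which only the brighter was well above background on all 6 arrays. On the brighter one, A_70_P029931, the processed signal was 1824, 2410 and 3353 in groin replicates 1 to 3 and 101, 309 and 107.5 in body side replicates 1 to 3. Every body side array was below every groin array, and body side replicate 2 was the highest of its site. After scaling, the level was -0.73 ± 0.31 in the groin and -3.19 ± 0.40 on the body side (SD, n = 3 each). FGF7 was thus 5.50-fold higher in the groin, with a difference of -2.46 ± 0.25 SE (95% interval -3.04 to -1.88, limma adjusted p = 9.68e-05).

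The second FGF7 probe, A_70_P029932, gave the same direction. Its processed signal was 593, 992 and 1195 in the groin and 20.9, 75.4 and 37.6 on the body side, where replicate 1 was not well above background. In body side replicates 1 and 3, 1 of the 77 negative control spots read at or above this probe. The sites again did not overlap. The scaled level fell from -2.19 ± 0.39 to -5.13 ± 0.52 (SD, n = 3 each), a difference of -2.94 ± 0.30 SE (limma adjusted p = 9.33e-05). This probe passed the filter through the groin alone, so its p and lack of overlap support no difference by themselves. Both probes followed the same order of arrays within the groin, lowest in the ram and highest in replicate 3. So did every FGF2 and FGF10 probe except A_70_P012572. The 2 FGF7 probes correlated at r = 0.986 over the 6 arrays, as a description. In the ram, whose arrays come from 1 animal, the differences were -2.43 and -3.09 for the 2 probes, beside -2.47 and -2.86 for the means of the ewes.

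**Figure D1:**
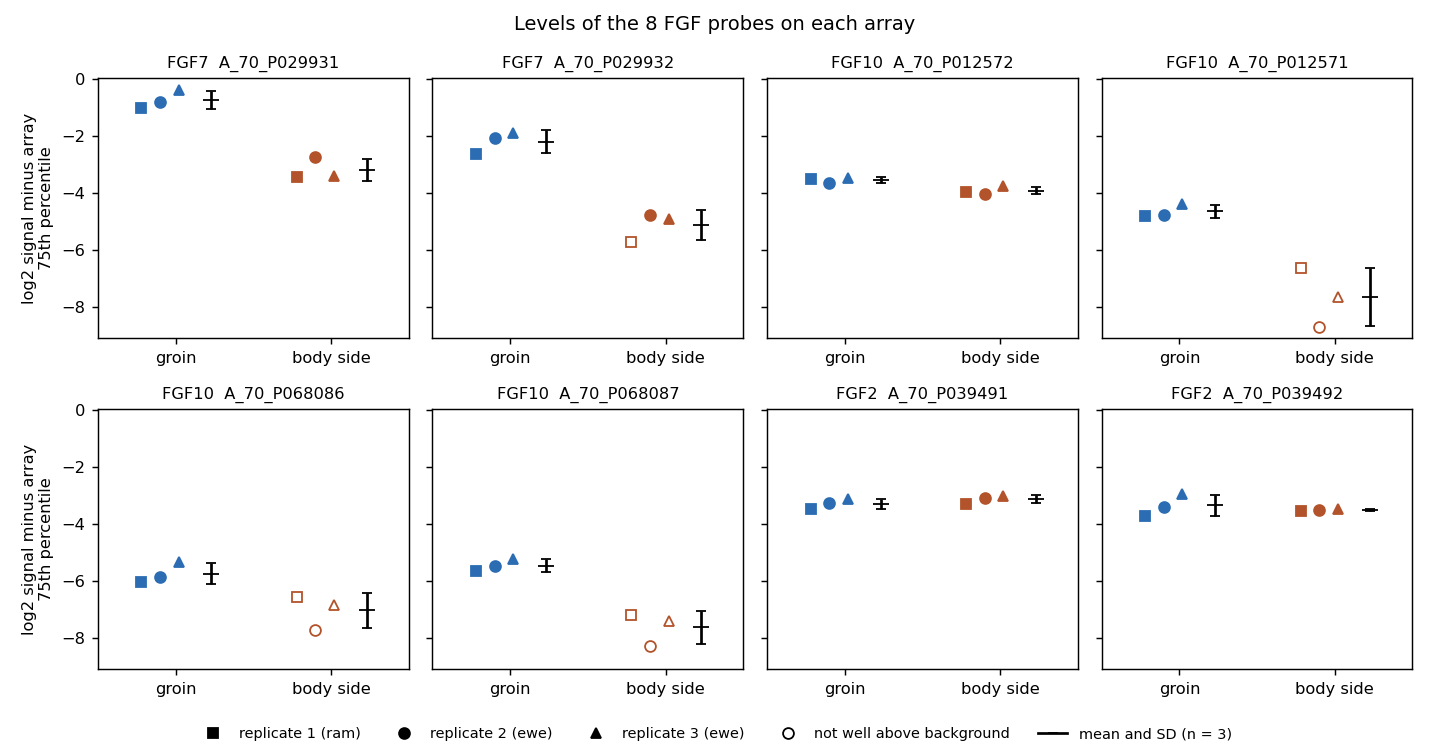
Level of each of the 8 probes (log2 processed signal relative to the 75th percentile, vertical axis) in groin (blue) and body side (brown) skin. Symbols mark replicates 1 (ram), 2 and 3 (ewes), open symbols arrays on which the probe was not well above background, and black bars the mean and SD of 3 arrays; both FGF7 probes lie lower on the body side without overlap, and the FGF2 probes overlap.

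FGF10 gave no single answer, because 3 of its 4 probes were not well above background on any body side array. The brightest, A_70_P012572, was the 1 FGF10 probe read well above background throughout. Its processed signal was 323, 329 and 395 in the groin and 71.2, 125 and 83.1 on the body side. Scaled, the level was -3.55 ± 0.10 in the groin and -3.92 ± 0.14 on the body side (SD, n = 3 each). The 3 body side arrays lay just below the groin arrays without overlap, but the difference of -0.37 ± 0.16 SE did not pass (95% interval -0.74 to 0.01, limma adjusted p = 0.0739). The sign of this probe turned with median centring, to 0.09, and with normexp background correction, to 0.19, and it passed only without scaling, at -1.94.

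The other 3 FGF10 probes were well above background on all groin arrays but nowhere on the body side. A_70_P012571 read 132, 154 and 209 in the groin and 10.98, 4.95 and 5.67 on the body side. A_70_P068087 read 72.1, 92.4 and 117 in the groin and 7.502, 6.57 and 6.61 on the body side. A_70_P068086 read 55.4, 72.2 and 109 in the groin and 11.6, 9.68 and 9.90 on the body side. The groin signals of all 3 probes lay above all 77 negative control spots of their arrays, whose highest reading there was 40.0. On the body side they lay within the range of those spots: of the 77, between 8 and 25 read at or above A_70_P012571, between 3 and 40 at or above A_70_P068087, and between 1 and 14 at or above A_70_P068086.

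For such probes the body side level was not measured, and the groin can only be set against a detection limit. Set against the lowest signal of any probe well above background on each body side array, the groin reading of A_70_P012571 was 2.65-fold higher (measured means -4.65 and -7.66, limma adjusted p = 5.24e-04). By the same rule A_70_P068087 was 1.505-fold above the limit (-5.47 and -7.63, limma adjusted p = 3.16e-04) and A_70_P068086 1.24-fold (-5.75 and -7.04, limma adjusted p = 0.00674). The limits were -5.39, -7.10 and -5.68 in body side replicates 1 to 3, and the bounds use their mean, -6.06. The groin mean of A_70_P068086 lay below the limits of replicates 1 and 3, and that of A_70_P068087 below the limit of replicate 1. On those arrays the limit shows no lower level than in the groin. The p-values rest on body side readings within the range of the negative controls, of probes that passed the filter through the groin alone, and support no difference by themselves. The ratios to the limits apply to the 75th percentile scaling. With normexp, which starts from the median signals of the spot and its surroundings, the 3 probes were at -0.01, 0.42 and 0.72, and A_70_P068086 was then called higher on the body side while the other 2 did not pass.

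**Figure D2:**
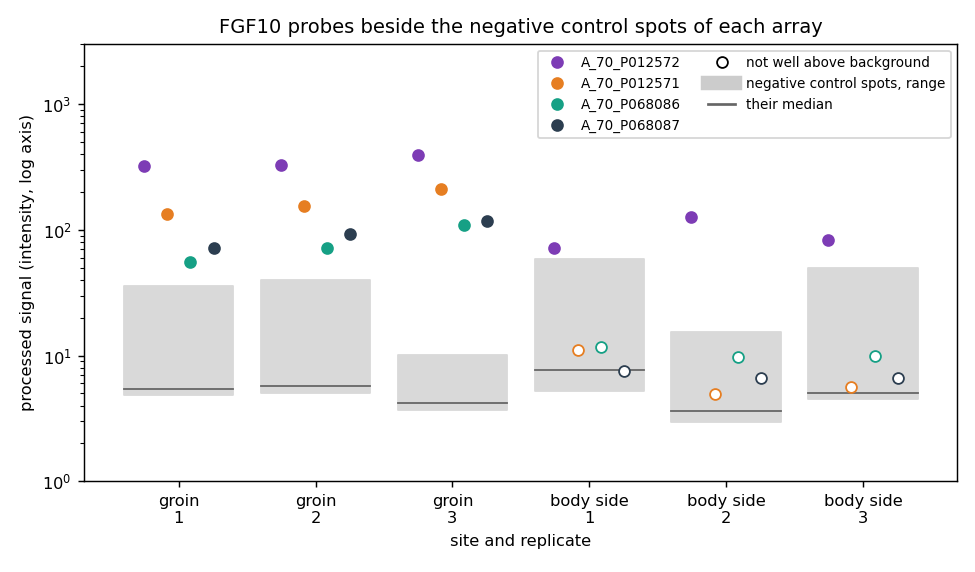
Processed signal (intensity, log axis) of the 4 FGF10 probes on each array, with the range of the 77 negative control spots of that array as a grey block and their median as a line. Open circles were not well above background; on the body side 3 probes lie inside the grey block, and A_70_P012572 lies above it on every array.

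Which transcript form or part of the mRNA each probe covers is not given in the sources used here. All 8 probes, those of FGF10 among them, had their highest groin level in replicate 3. The limma interaction of site and sex passed for none of the 8 FGF probes, beside 0.113% of all probes with an estimate. The largest was 1.73 for A_70_P012571 (ram -1.85, ewes -3.59), whose body side readings lay within the range of the negative controls. The ram gave 1 array per site, so its spread was taken to be that of the ewes, and this test says little about a difference between the sexes.

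Neither FGF2 probe passed the test with this scaling. The probe A_70_P039491 was spotted 5 times per array, which shows the spread between spots of an array directly. Averaged over spots, its processed signal was 332, 428 and 507 in the groin and 113, 243 and 141 on the body side. The scaled levels were -3.47, -3.28 and -3.12 in the groin and -3.29, -3.08 and -3.01 on the body side, so that the sites overlapped. The difference was 0.17 ± 0.17 SE (95% interval -0.23 to 0.56, limma adjusted p = 0.418).

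The spots of that FGF2 probe give the spread within an array for this probe, and do not measure error between arrays. On the groin arrays they differed by SDs of 0.08 to 0.11 on the log2 scale, after 1 spot of replicate 1 had been left out for an outlier flag. On the body side the SDs were 0.38 in replicate 1, 0.17 in replicate 2 and 0.12 in replicate 3. In body side replicate 1 the spots ran from 77.03 to 151, a 1.95-fold range within 1 array. The SD between the 3 arrays was 0.17 for the groin and 0.15 for the body side, and the SE of the mean of the 5 spots in body side replicate 1 was also 0.17.

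**Figure D3:**
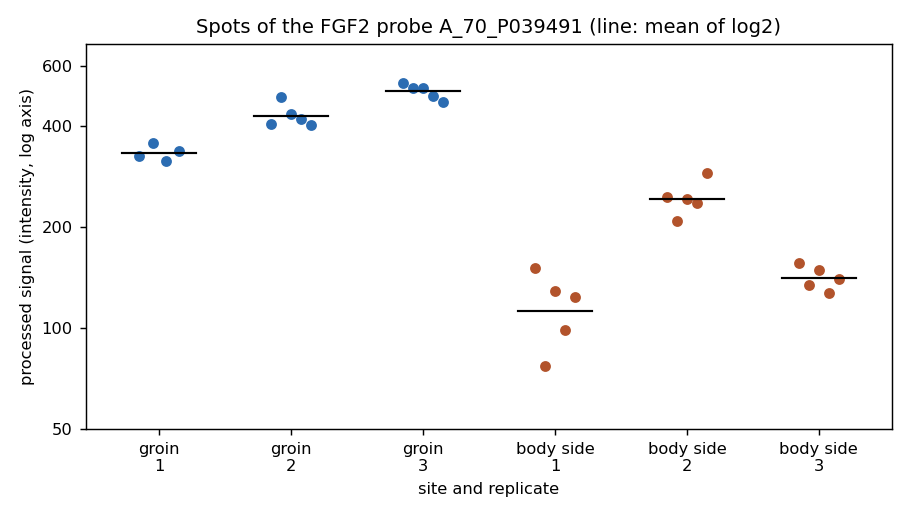
Processed signal (intensity, log axis) of the single spots of FGF2 probe A_70_P039491 on each array, 5 per array and 4 in groin replicate 1, with the mean of their log2 values as a line. The signals are not scaled between arrays, and the spots of body side replicate 1 range most widely.

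The other FGF2 probe, A_70_P039492, read 281, 396 and 568 in the groin and 93.9, 180 and 101 on the body side. Its scaled level was -3.35 ± 0.38 in the groin and -3.52 ± 0.03 on the body side (SD, n = 3 each), with the body side arrays inside the range of the groin arrays. The difference was -0.16 ± 0.21 SE (95% interval -0.65 to 0.33, limma adjusted p = 0.516). The call on FGF2 depended on the scaling: A_70_P039491 passed as higher on the body side with median centring (0.62), quantile normalization (0.58), cyclic loess (0.50), the deposited log2 values (0.57) and normexp (0.48), and as lower without scaling (-1.41). The second probe was above 0 but did not pass under those 5 settings, and passed as lower without scaling, at -1.74.

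A comparison between the genes within each array does not depend on a scaling constant. By the brightest probe of each gene, the difference of FGF7 minus that of FGF2 was -2.62 on the log2 scale. It was -2.09 for FGF7 minus FGF10 and -0.53 for FGF10 minus FGF2, while the differences of FGF10 and FGF2 themselves did not pass. For all 3 pairs the within-array differences of the 2 sites did not overlap. The exact two-sided permutation p was 0.1 for each, also after Benjamini-Hochberg adjustment over the 3 pairs. That is the smallest p that 3 against 3 arrays allow, so no pair could pass. This test shuffled the 6 arrays without regard to animal, although the samples of both sites came from the same 3 animals. A constant by which an array is divided cancels in these within-array differences.

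**Figure D4:**
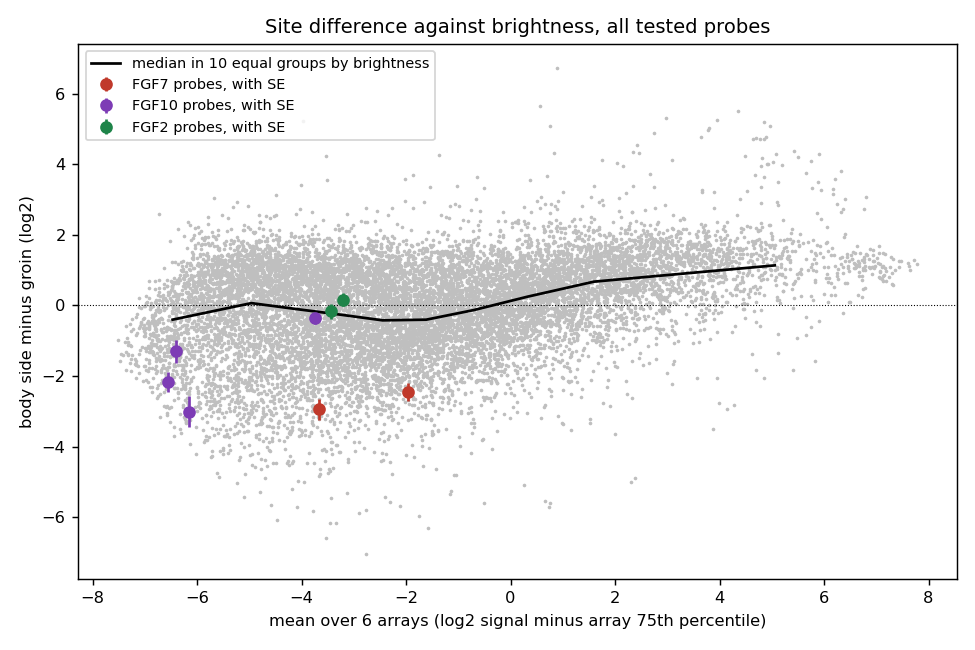
Site difference (body side minus groin, log2, vertical axis) against the mean level over the 6 arrays (horizontal axis) for all 13278 tested probes in grey, with the median in 10 equal groups by brightness as a line and the probes of the 3 genes with their SE in colour. The FGF7 probes lie at -2.46 and -2.94, well below the line, and the FGF2 probes and the brightest FGF10 probe lie near it.

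The difference over all probes moved with brightness. Of the 8 probes, 7 lay in the 4 dimmest of 10 equal groups by mean level, and the brighter FGF7 probe in group 6. In the 10 equal groups of tested probes by mean level, the median difference ran from -0.42 to 1.14. It was -0.40 in the group of the brighter FGF7 probe and -0.11 in that of its second probe and of A_70_P012572 of FGF10. It was -0.26 in the group of both FGF2 probes and -0.40 in the dimmest group, which held the other 3 FGF10 probes. Both FGF7 probes were thus further down than the median of probes of like brightness by over 2 on the log2 scale. Many other probes fell further: counted from the lowest difference of the 13278 tested probes, the brighter FGF7 probe ranked 741 and the second 419. The part of brightness in the differences was not tested beyond the scalings given here.

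**Figure D5:**
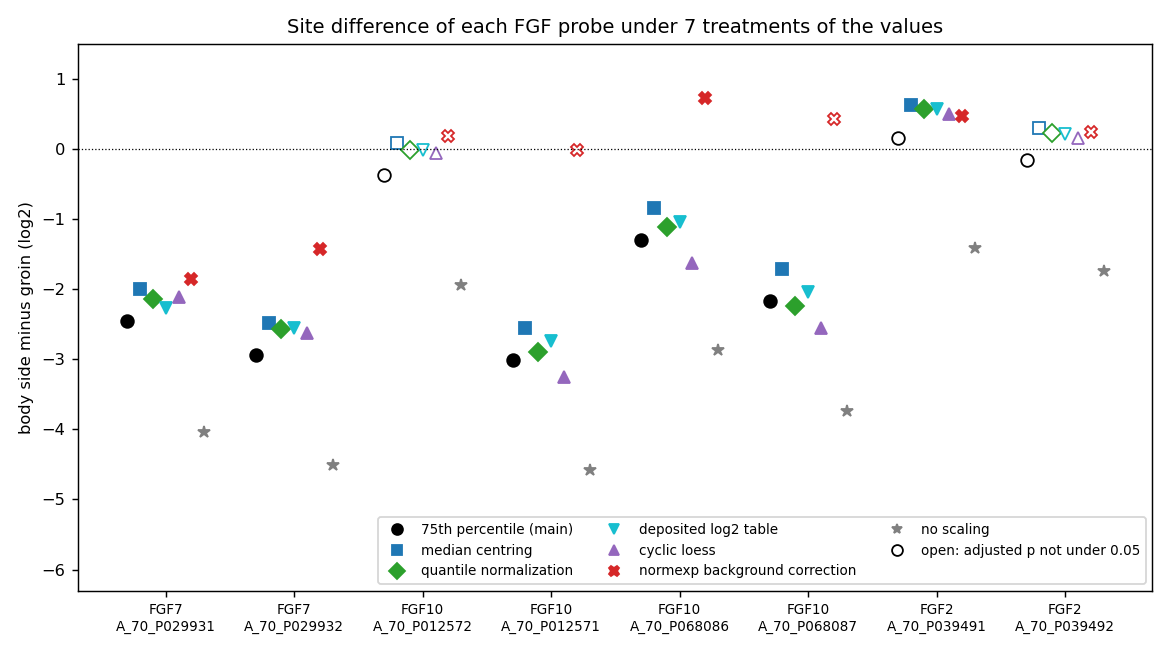
Site difference (body side minus groin, log2) of each probe under 7 treatments of the values; filled symbols passed an adjusted p under 0.05 in limma, open ones did not. The FGF7 probes stay below 0 throughout, from -4.03 to -1.86 for A_70_P029931, whereas the FGF2 probes and the brightest FGF10 probe change sign, as do 2 dim FGF10 probes with normexp.

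The brighter FGF7 probe kept its direction and its call in all alternatives run, and the second in all that tested it, which excludes the filter on all 6 arrays. The second probe passed the main filter through the groin alone, so its calls are no support by themselves. The difference of A_70_P029931 ranged from -4.03 without scaling to -1.86 with normexp, and that of A_70_P029932 from -4.51 to -1.43, with adjusted p of at most 8.55e-04 and 9.16e-04. Leaving out 1 array at a time moved the brighter probe between -2.69 and -2.29. The ewes alone gave -2.47 and -2.86 for the 2 probes.

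Few other genes of the pathway could be followed. Of 73 listed genes, none of the 19 further ligands, 5 receptors, 10 co-receptors and carriers, 10 adaptors, 9 RAS and ERK genes or 8 inhibitors had a named probe. The 4 tested genes were AKT1 and the target genes EGR1, FOS and MYC. By their brightest probes 3 were called lower on the body side and 1 higher, beside 71% of the 442 tested named genes called in either direction.

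AKT1, the kinase downstream of PI3K, fell on the body side. Its levels were -1.31, -0.89 and -0.85 in the groin and -3.31, -2.82 and -3.23 on the body side, a difference of -2.10 ± 0.21 SE (limma adjusted p = 8.48e-05). The sites did not overlap, and the call held in all alternatives run, from -3.68 to -1.61. AKT1 serves many receptors besides those of fibroblast growth factors.

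The 3 target genes are transcription factors induced by ERK signalling and by many other stimuli, and they moved in different directions. EGR1 rose by 1.40 ± 0.19 SE, with a groin level of -2.60 ± 0.13 and a body side level of -1.21 ± 0.27 (SD, n = 3 each, limma adjusted p = 3.70e-04), and was at -0.18 without scaling. FOS fell by 2.89 ± 0.34, and was at -1.15 with normexp. Its other 2 probes were at -4.11 and -3.38. Each of its 3 probes was well above background on 1 of 3 body side arrays and passed the filter through the groin. MYC fell by 0.84 ± 0.27 on its brighter probe, which lacked the value of body side replicate 3, while its other probe did not pass (-0.25 ± 0.18). The MYC call ended with median centring (-0.38) and without any 1 of groin replicates 1, 2 or 3 (-0.80, -0.83 and -0.89).

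Among the 441 other tested named genes, the profiles over the 6 arrays most like that of FGF7 included those of ARF1, a small GTPase of vesicle traffic (Pearson r = 0.9985), PTGFR, the receptor of prostaglandin F (0.998), and TPM1, a tropomyosin (0.998). These 3 were lower on the body side, with differences of -3.04, -1.93 and -1.19. For the brightest FGF10 probe they included AQP1, a water channel (r = 0.964), SLC25A4, a mitochondrial ADP/ATP carrier (0.938), and ABCB1, a drug efflux pump (0.936). None of the 3 body side arrays read the AQP1 probe well above background. For FGF2 they were COPS7B (0.909), FTO, an RNA demethylase (0.908), CYB561 (0.846) and HBB, a globin (0.767). The COPS7B probe was well above background on only 1 of the 3 body side arrays. These correlations share the scaling of the arrays and the split into sites, and carry no test.

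FGF7 and FGF10 are made by dermal cells, and full-thickness skin mixes many cell types; in such bulk samples fewer cells of a type and less RNA per cell cannot be told apart. Of 12 dermal fibroblast markers 3 were tested: DCN rose by 0.89 ± 0.24 SE, and BGN and MMP2 fell by 0.86 ± 0.19 and 3.71 ± 0.20. MMP2 was well above background on 2 of the 3 body side arrays and passed the filter through the groin. The summed scaled signal of these 3 markers was 84.1 to 94.9 in the groin and 116 to 203 on the body side, as multiples of the array's 75th percentile. Of 10 dermal papilla markers 3 were tested: BMP4 rose by 2.75 ± 0.17, NOG did not pass (0.41 ± 0.43), and LEPR, not well above background on any body side array, was called lower. Their sum was 0.748 to 0.805 in the groin and 4.18 to 5.41 on the body side. DCN and BMP4 are by far the brightest of their lists and carry these sums. DCN turned to -0.36 with quantile normalization, -0.81 with cyclic loess, -0.37 with the deposited log2 values and -0.68 without scaling. The BGN call ended with median centring (-0.40) and the LEPR call with normexp (-0.36), and NOG was called higher with normexp (1.14) and lower without scaling (-1.16). The part of these cells in the FGF7 and FGF10 differences was not tested.

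Markers of other cells in the skin also differed between the sites. All 4 tested follicle keratinocyte markers of 9 listed rose, KRT25, KRT27, KRT35 and PADI3, with sums of 61.9 to 74.97 in the groin and 436 to 821 on the body side. Both tested endothelial markers of 7 fell, with sums of 0.312 to 0.371 and 0.145 to 0.168. Of 6 T cell markers 3 were tested, of which 2 rose and 1 fell (sums 2.31 to 2.84 and 6.42 to 7.83). Of 6 myeloid markers 3 were tested, of which 1 fell and 2 did not pass (0.826 to 1.00 and 0.407 to 0.952). Of 6 adipocyte markers 2 were tested, with 1 rise and 1 fall (2.11 to 2.403 and 2.70 to 4.76), and of 8 muscle markers 4, with 2 rises, 1 fall and 1 that did not pass (26.7 to 31.1 and 21.4 to 33.4). These falls were of LPL and TNNC2, well above background on 1 and 2 of the 3 body side arrays. Both probes passed the filter through the groin. The adipocyte sums are carried by PLIN1, and the muscle sums by CNN1 and MYL11. With normexp and under the other scalings the calls on KRT25, KRT27, KRT35, SELE, CD247 and TLR4 held. SELP, the other endothelial marker, no longer passed with normexp, quantile normalization, median centring or the deposited values (-0.04, -0.30, -0.24 and -0.31). Without scaling PADI3, CD3E and MB no longer passed (0.37, 0.05 and 0.28), and the sign of PLIN1, MYL11 and CD3D turned. PLIN1 and MYL11 also failed to pass with quantile normalization, cyclic loess and the deposited values. LPL and TNNC2 turned with normexp and did not pass with quantile normalization, median centring or the deposited values, nor TNNC2 with cyclic loess. CNN1 was called lower with quantile normalization (-1.57), cyclic loess (-1.57), the deposited values (-1.61) and without scaling (-1.93), and was at 0.10 with median centring. ITGAM turned above 0 with normexp, quantile normalization, median centring, cyclic loess and the deposited values without passing, and was called lower without scaling (-1.64), as was CD14 (-2.06). What these cells contribute to the FGF values was not tested.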

How the data were processed

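The authors scanned 6 single-colour arrays. Per the file headers and the submitters' processing notes, the reader was Agilent Feature Extraction, version 10.5.1.1. The processed signal (intensity) was deposited without normalization between arrays; the median signals of spot and surroundings (intensity) were also used, per the file headers. The authors' deposited log2 table has the same median in every column, 8.31, and its correlation with quantile-normalized log2 signals was 0.999 for each column; its background step is not given in the sources used here. Groups and replicate numbers came from the titles. Replicates of a site are separate animals, and both sites were sampled in the same 3 animals. The number of arrays limits precision.

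Control spots and outlier-flagged spots (6 to 51 per array) were left out, and repeat spots were averaged as log2. From the log2 processed signals each array's own 75th percentile was subtracted. The tested 13278 probes had at least 2 values per site and were well above background on the 3 arrays of 1 site or of both. Differences came from limma 3.58.1 in R 4.3.3 (lmFit, eBayes, no block) with Benjamini-Hochberg adjustment over these, threshold 0.05, in a script tested on simulated data. Probes were named by RefSeq accession through a table of assembly ARS-UI_Ramb_v3.0 (734 matched, 14274 not); the files name no build, so no coordinates are given. A gene is given by its brightest tested probe and, for the 3 growth factors, by every probe. Named genes were these 3, all tested genes of the pathway list and, per growth factor, the 4 genes of highest correlation, some of which are not reported here. The members and lists were chosen with earlier results of these data known.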

Additional observations from a re-analysis of the deposited data

How the results depend on the processing

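The alternatives were other background correction (normexp), other scalings, the deposited log2 table, other filters, a variance trend with robust moderation, the replicate number as a block, the mean of a gene's probes, each array left out and, added after seeing the data, the ewes alone. Scaling on spike-ins was not run, since only 1 of the 10 spike-in control probes was well above background in most of its spots on all 6 arrays.

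FGF7 kept its call in all of them (leave-outs -2.69 to -2.29). The brightest FGF10 probe passed without scaling (-1.94), and was at 0.19 with normexp and 0.091 with median centring (leave-outs -0.44 to -0.31). The average over all 4 FGF10 probes, 3 of them not above background on the body side, was -1.71 and passed. The brightest FGF2 probe passed with normexp (0.48), quantile normalization (0.58), median centring (0.62), cyclic loess (0.50) and the deposited values (0.57), and turned to -1.41 without scaling (leave-outs 0.08 to 0.25). The second FGF2 probe turned to 0.25, 0.22, 0.29, 0.16 and 0.22 under the same 5 settings and to 0.038 without groin replicate 3 (leave-outs -0.34 to 0.038). With normexp A_70_P068086 turned to 0.72 and A_70_P068087 to 0.42. Without scaling EGR1 turned to -0.18. The cause was not tested. Of the 8 probes, 5 were called lower and none higher with the 75th percentile and in every leave-out, 2 lower and 2 higher with normexp, 5 lower and 1 higher with quantile normalization, median centring, cyclic loess and the deposited values, 8 lower without scaling and 1 with a filter on all 6 arrays, which leaves 4 of them to test; that filter leaves 2 pathway genes called (leave-outs 3 to 4).

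Without scaling the median difference of all probes shifts by -1.57, with median centring by 0.46, with normexp by 0.36, with the filter on all 6 arrays by 0.22, with no filter by 0.15 and with cyclic loess by -0.12. Higher calls made up 53.0% of all calls, 68.6% with normexp, 68.5% with median centring, 61.8% with the filter on all 6 arrays and 1.98% without scaling. Between 7764 and 9796 of all tested probes were called (leave-outs 8103 to 9716).

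The ram's arrays are from 1 animal; whether numbers 2 and 3 pair the ewes is not stated. Deviations of same-numbered arrays correlated at 0.159, 0.09 and -0.09, against 0.164 for groin 3 with body side 2, so the numbers were not taken as pairs. With the replicate block FGF7 stayed at -2.46 (adjusted p = 1.08e-04), the brightest FGF10 probe at -0.37 (0.112) and FGF2 at 0.17 (0.446); 5 of the 8 probes and 9211 of all were called. On the body side, 3 FGF10 probes were limited by signal over background.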
